A study of Homo sapiens with 3 samples.

Results

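ARID1B peaks were examined at ZNF608, a zinc-finger gene on chromosome 5, and at its paralogue ZNF609 on chromosome 15, in HEK293FRT cells, a line derived from human embryonic kidney. The members were all peaks in the 1.4 Mb stretch chr5:124200000-125600000 (hg38) around ZNF608 and all peaks inside ZNF609 or within 100 kb of it. They numbered 48 of the 3612 peaks of the series, 46 at ZNF608 and 2 at ZNF609. The members were chosen by peak positions, since the lists of these same replicates show many shared peaks around ZNF608. The number, the positions and the sharing of the peaks therefore describe the locus and are not tested. The series held 2 ARID1B ChIP replicates and 1 input, with no treatment and no genotype given in the labels. The input was not analysed here, and nothing in the labels ties the replicates to separate cultures. The list of replicate 1 held 1792 peaks and that of replicate 2 held 1820. The lists give no read counts, so the depth behind a score is unknown. Each peak carries a whole-number score given by the authors on a scale not given in the sources used here. The score serves only to describe and rank peaks, and a percentile is the share of peaks of the same list that score at or below it.

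ARID1B belongs to the BAF form of the SWI/SNF chromatin remodelling machinery, where it contacts DNA and takes the place that ARID1A takes in other BAF complexes. These complexes slide and evict nucleosomes, and much of their binding is known to lie at enhancers away from gene starts. The proteins of ZNF608 and ZNF609 are related zinc-finger proteins of the nucleus. Mouse Zfp608 is known as a repressor of the recombinase genes Rag1 and Rag2 in immature thymocytes. Mouse Zfp609 is known to bind the cohesin loader Nipbl and the Integrator complex in neural cells, and human ZNF609 also gives rise to a circular RNA studied in myoblasts.

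In replicate 1 the promoter windows of the paralogues differed in whether a peak covered them, and in replicate 2 neither held a peak. The windows printed here, from RefSeq (GRCh38.p14), run from 250 bases before to 50 bases after each annotated transcription start. They are shown because a peak of 1 replicate covered most of the ZNF609 window and none touched the ZNF608 window. Capitals mark the CCAAT boxes of either strand in ZNF608 (chr5:124748775-124749074, minus strand) and the bases under the replicate 1 peak in ZNF609 (chr15:64460328-64460627, plus strand).
ZNF608: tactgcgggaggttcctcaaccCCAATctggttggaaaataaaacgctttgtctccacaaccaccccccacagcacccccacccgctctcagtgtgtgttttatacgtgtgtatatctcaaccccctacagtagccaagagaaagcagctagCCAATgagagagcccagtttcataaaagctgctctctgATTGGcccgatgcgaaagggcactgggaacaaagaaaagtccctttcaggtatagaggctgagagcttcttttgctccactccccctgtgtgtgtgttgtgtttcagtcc
ZNF609: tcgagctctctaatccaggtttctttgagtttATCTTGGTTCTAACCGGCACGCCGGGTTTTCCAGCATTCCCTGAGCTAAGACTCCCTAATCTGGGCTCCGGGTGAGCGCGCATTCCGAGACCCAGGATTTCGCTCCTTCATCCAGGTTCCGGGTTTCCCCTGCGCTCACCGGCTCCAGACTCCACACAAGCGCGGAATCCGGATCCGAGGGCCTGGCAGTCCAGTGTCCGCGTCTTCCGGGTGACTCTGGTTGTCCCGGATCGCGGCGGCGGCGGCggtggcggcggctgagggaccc

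The ZNF608 window held no peak of either replicate. The ZNF609 peak of replicate 1 lay at chr15:64460360-64460605, had a score of 109 (percentile 70.7) and covered 246 bases of the window, bases 33 to 278. Replicate 2 had no peak there. Peaks of replicate 1 touched 0.493% of 35116 RefSeq promoter windows, peaks of replicate 2 touched 0.84% and regions shared by both replicates 0.51%. A shared region covers the full length of its joined peaks, so the last share includes windows touched by 1 replicate alone. The ZNF609 start lies 9 bp from that of LOC105370861, a long non-coding RNA gene on the opposite strand, and the peak covered both starts.

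The GC content of the ZNF608 window was 50.7%, with 6 CpG dinucleotides. That of the ZNF609 window was 62.7%, with 28 CpG, and the medians over all windows were 58.7% and 14. Of 4 motifs searched on both strands, the CCAAT box (CCAAT) occurred 3 times in the ZNF608 window and not in the ZNF609 window, and 34.6% of all windows hold it. The TEAD motif (GGAATG, in 14.0% of windows) did not occur in the ZNF608 window and began at bases 67 and 113 of the ZNF609 window, on the opposite strand and under the peak. The GC box (GGGCGG, in 45.0% of windows) and the AP-1 motif (TGANTCA, in 7.71%) were in neither window. These letters describe the windows and show no binding of a factor.

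At ZNF608, replicate 1 held 25 peaks and replicate 2 held 21, of which 20 in each list shared at least 1 bp with a peak of the other replicate. The shared peaks formed 20 regions, each made of 1 peak per replicate, spread over 1222 kb. They made up 1.52% of the 1313 shared regions of the series and 17.1% of the 117 on chromosome 5. The share found in both replicates was 80% in replicate 1 (95% interval 59.3 to 93.2, exact Clopper-Pearson), against 73.5% of all replicate 1 peaks. For replicate 2 it was 95.2% (76.2 to 99.9), against 72.4% of all replicate 2 peaks. The intervals cover counting error only and treat neighbouring peaks as independent. Sharing was among the values that chose the locus, so no difference is read from these shares.

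Of the 20 shared regions, 9 lay inside ZNF608 (gene ID 57507, chr5:124636915-124748824, 112 kb, minus strand), 8 upstream of its start and 3 past its end. Exons and introns were not separated here. Scores inside the gene were 55 to 376 in replicate 1 with a median of 132, and 37 to 385 in replicate 2 with a median of 171. Upstream they ran from 43 to 301 (median 148) in replicate 1 and from 78 to 325 (median 111) in replicate 2. Past the end they ran from 56 to 229 (median 83) in replicate 1 and from 83 to 362 (median 91) in replicate 2. The score ranges of the 3 places overlapped in both replicates, so high and low peaks occurred inside the gene and on both sides of it.

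**Figure D1:**
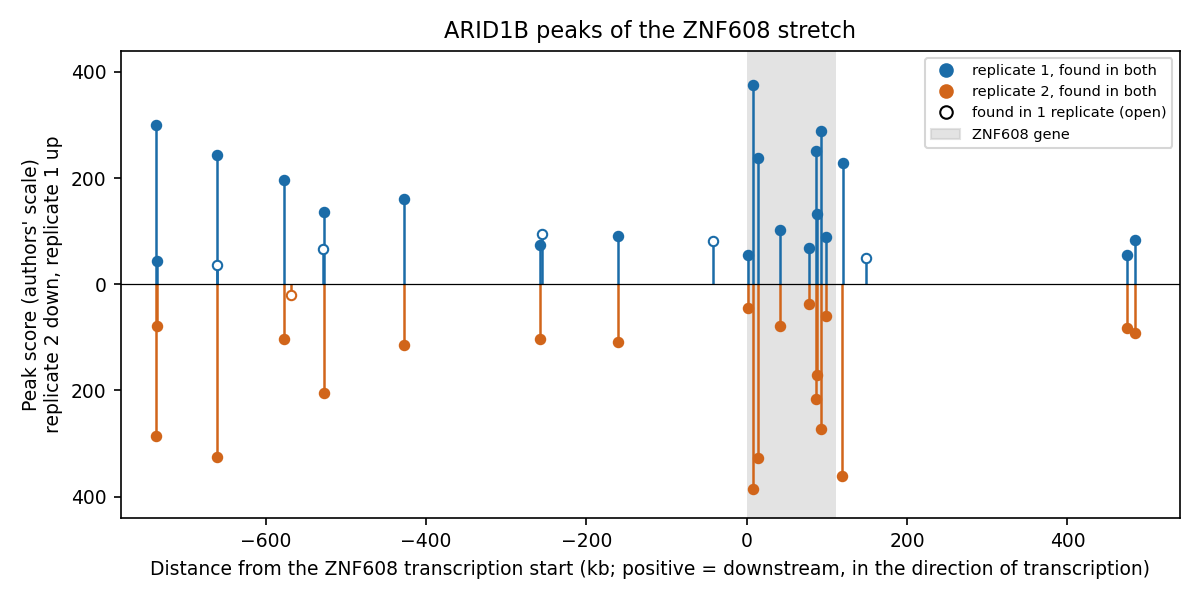
Peaks of the ZNF608 stretch by distance from the ZNF608 transcription start (x axis, kb) and score (y axis, authors' scale), with replicate 1 above the line and replicate 2 below it. Filled points are peaks found in both replicates, open points those of 1 replicate, and the gray band is the gene: 9 filled pairs lie inside it, 8 upstream on the left and 3 past its end on the right.

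The region with the highest percentiles of the stretch lay inside ZNF608, 7.64 kb from the start, at chr5:124740932-124741428. Its score was 376 in replicate 1, rank 37 of 1792, and 385 in replicate 2, rank 44 of 1820. The next region into the gene, 13.5 kb from the start at chr5:124735025-124735607, scored 237 in replicate 1 and 328 in replicate 2. The shared region nearest to the start, centred 1.47 kb into the gene at chr5:124747201-124747504, scored only 55 and 44, at percentiles 32.3 and 21.8. At this end of the gene the high scores were several kb inside it, and the region next to the start had a low one.

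A group of 5 regions lay towards the far end of ZNF608, between 77.8 and 98.6 kb from the start. The strongest, at chr5:124655734-124656362, scored 288 in replicate 1 and 273 in replicate 2. A region at chr5:124662251-124662667 scored 252 and 216, and its close neighbour at chr5:124661294-124661748 scored 132 and 171. These 3 stood above percentile 75 of both lists. The other regions of the group were weaker, with 89 and 60 at chr5:124649926-124650492 and 68 and 37 at chr5:124670835-124671123, the region with the lowest score of the stretch in replicate 2 among those shared. Between the groups at the ends of the gene lay 1 region, at chr5:124706697-124707146, with scores of 102 and 78. Inside the gene the highest-scoring regions stood towards both ends, with a region of middling score between them.

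Past the end of ZNF608 the nearest region, at chr5:124629144-124629626, was centred 7.53 kb beyond the annotated end and was among the strong ones, with scores of 229 in replicate 1 and 362 in replicate 2. In replicate 2 it ranked 50 of 1820. The other regions on this side lay 362 and 373 kb beyond the end, inside the long non-coding RNA gene LINC01170. That at chr5:124274441-124274661 scored 56 and 83, and that at chr5:124263914-124264185 scored 83 and 91.

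Upstream of ZNF608 the nearest shared region was centred 160 kb from the start. The first 2 regions, at chr5:124908579-124908926 and chr5:125006438-125006778, lay outside annotated protein-coding and long non-coding RNA genes and scored 91 and 108, and 74 and 103. Farther out, LOC101927421, a long non-coding RNA gene, held 3 regions. Of these, chr5:125176037-125176462 scored 160 and 114, chr5:125274929-125275672 scored 136 and 204, and chr5:125325949-125326550 scored 196 and 103. Each of these 3 scored above the first 2 in replicate 1, while in replicate 2 the last of them, with 103, did not.

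At chr5:125409127-125410315, 661 kb upstream and outside annotated genes, the scores were 244 in replicate 1 and 325 in replicate 2. This was the widest region of the stretch, at 1189 bp for the joined peaks. Its peak was 1086 bp wide in replicate 1 and 1165 bp in replicate 2. The median peak width of the stretch was 321 bp in replicate 1 and 417 bp in replicate 2. At chr5:125484722-125485623, 736 kb upstream and inside the long non-coding RNA gene LOC124901056, the scores were 301 and 285, rank 67 in replicate 1 and rank 89 in replicate 2. Its close neighbour at chr5:125484295-125484584 scored 43 and 78. Ordered by the lower of the 2 percentiles, the stronger region of this pair came second in the stretch. Whether any distant region acts on ZNF608 was not measured.

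The 26 positions of the stretch also included 6 found in 1 replicate. The 5 of replicate 1 alone scored 36 to 95 and the 1 of replicate 2 alone, at chr5:125317221-125317417, scored 21. The 3 highest were at chr5:125004028-125004294 (score 95), chr5:124790996-124791342 (81) and chr5:125277615-125277902 (66), and all 3 lay upstream of ZNF608. None of the 6 reached percentile 75 of its list.

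Over all its peaks, the stretch had a median score of 95 in replicate 1 and 108 in replicate 2, against 74 and 75 over all peaks of those lists. The median percentiles were 63.5 and 70.6. In replicate 1, 11 of 25 peaks (44%) stood above percentile 75 of the list, and in replicate 2 9 of 21 (42.9%), against 25.2% of all peaks in each list. Median widths were 321 and 417 bp, against 290 and 300 bp over all peaks. Of the 20 shared regions 9 stood above percentile 75 in both lists (45%), against 24.9% of all shared regions, and 2 were below the median of both lists. No test was made on these, because peaks of 1 locus are not replicates.

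Scores of the replicates followed each other along the stretch. Over the 20 shared regions the log2 scores gave a rho of 0.868 (Spearman) and an r of 0.867 (Pearson), against 0.708 and 0.737 over the 1293 other shared regions. These run across regions of the same 2 libraries and are a description. The ratio of the replicate 2 to the replicate 1 score had a median of 1.06 and ran from 0.526 to 1.81, against a median of 1.02 over the other regions. Replicate 2 had the higher score at 11 of the 20 regions and the lower at 9. Inside ZNF608 it was higher at 3 of 9, upstream at 5 of 8 and past the end at 3 of 3. Centres of paired peaks lay a median of 35.8 bp apart and at most 101 bp, against a median of 24 bp over the other regions, so positions were not closer in the stretch. The overlap was a median of 79.7% of the length covered by either peak, both in the stretch and over the other regions.

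**Figure D2:**
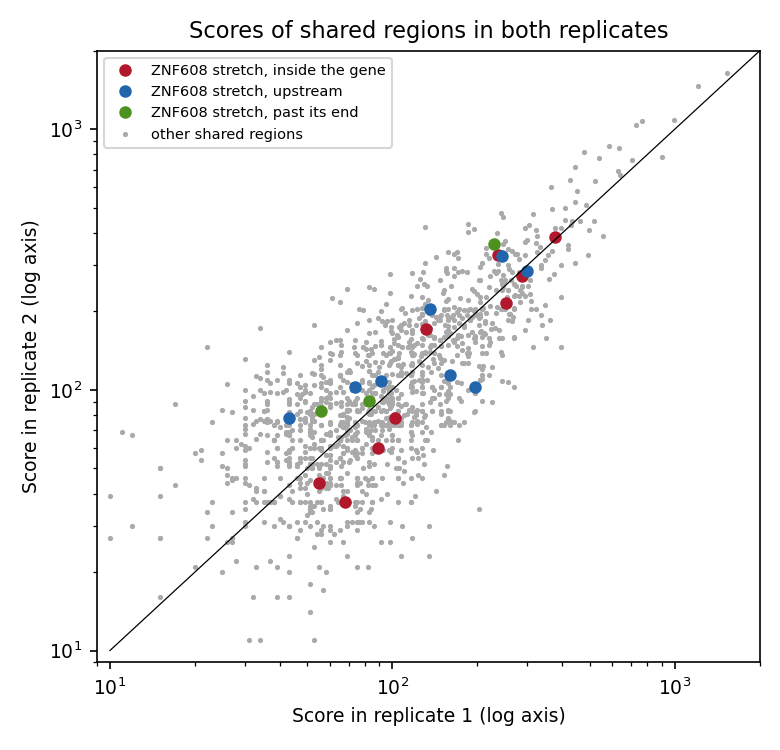
Score in replicate 1 (x axis, log) against score in replicate 2 (y axis, log) for all 1313 shared regions, with the line of equal scores. The 20 regions of the ZNF608 stretch are colored by place and run along the line from 43 to 376 in replicate 1 and from 37 to 385 in replicate 2, without the highest scores of the series.

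Regions were unevenly spaced. Joined across gaps of up to 100 kb, the 20 formed 4 groups of 2, 10, 2 and 6. The group of 10, at chr5:124629144-124747504, spanned 118 kb and was made of the 9 regions in ZNF608 and the one just past its end. The group of 6, at chr5:125176037-125485623, spanned 310 kb. Neighbouring regions of the stretch were a median of 28.4 kb apart, centre to centre, those inside ZNF608 6.02 kb, and those of all chromosomes 821 kb. Of 19 gaps in the stretch 7 were under 10 kb (36.8%), of 8 gaps inside ZNF608 6 were (75%), and of 1288 gaps over all chromosomes 86 were (6.68%).

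ZNF608 was set beside all protein-coding genes as a description, since its regions chose the locus. A shared region lay in the body of 2.81% of 19821 protein-coding genes and of 9.79% of the 3350 that are at least 100 kb long. The 9 regions of ZNF608 were matched by GMDS, an enzyme gene of fucose metabolism that is 622 kb long, and followed by the 7 of NKAIN2, 1022 kb long. Per length, ZNF608 held 8.04 regions per 100 kb, where genes of at least 100 kb held 0.0543 together and the next of them, TOM1L2, 2.33. This ranking leaves out genes under 100 kb, and some of those are denser with only 1 or 2 regions. Among 510 genes with a numbered ZNF symbol 7 (1.37%) had a region in the body, and after ZNF608 the most was 2, in ZNF503.

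**Figure D3:**
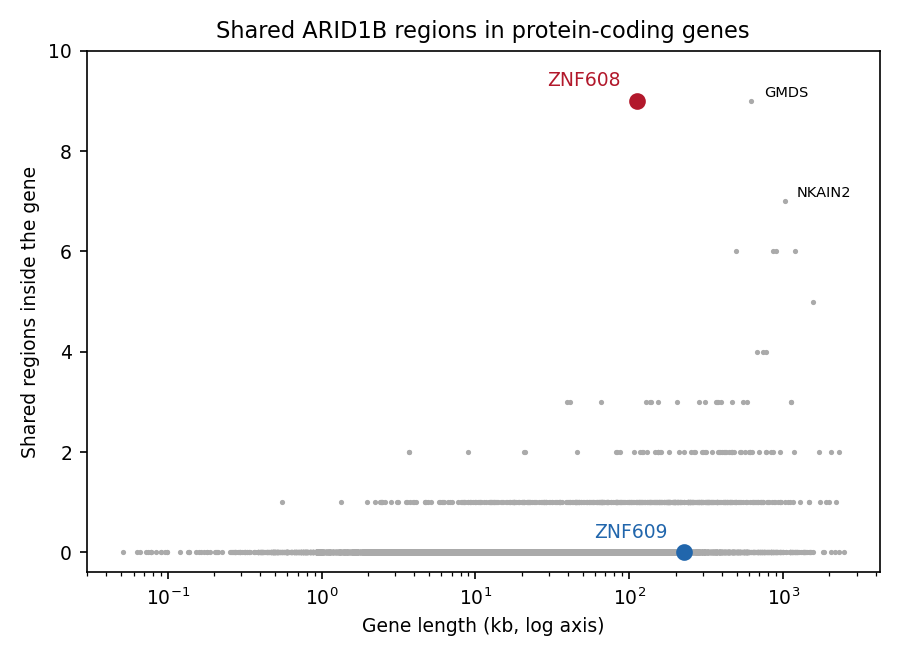
Length of each protein-coding gene (x axis, kb, log) against the number of shared regions inside it (y axis), 1 point per gene. ZNF608 is highest together with GMDS, at 9 regions, and is the shorter of the pair, while ZNF609 is at 0.

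At the paralogue ZNF609 (gene ID 23060, chr15:64459578-64686068, 226 kb, plus strand) no region was shared. With 100 kb on each side, ZNF608 had 12 peaks in replicate 1 and 10 in replicate 2, in 10 shared regions, and ZNF609 had 2 peaks in replicate 1 and 0 in replicate 2. Inside the genes, ZNF608 had 9 peaks in each replicate, and ZNF609 had 1 in replicate 1 and 0 in replicate 2. The peak inside ZNF609 was that at the transcription start used here, chr15:64460578. That start lies inside the annotated gene and not at its first base. Its other peak, 30.2 kb upstream at chr15:64430317-64430527, scored 77 (percentile 53.6) in replicate 1 and lay inside TRIP4, which encodes a subunit of a transcriptional coactivator complex. With 0 of 2 peaks shared the exact 95% interval reaches 84.2%, so the share found in both replicates is not bounded usefully there. No test was made of the paralogues against each other, since ZNF608 was chosen for its peaks.

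Counts were also set side by side in windows of equal length, as a description. The ZNF608 stretch was chosen for its peaks and is not centred on the gene. A high count there was thus a condition of the choice, and the difference in count was not tested. In 1.4 Mb centred on ZNF609, replicate 1 had 3 peaks, replicate 2 had 0 and no region was shared, against 25 and 21 peaks and 20 regions in the ZNF608 stretch. The shared region nearest to ZNF609 was 619 kb away, at chr15:65304756-65305138, with scores of 81 in replicate 1 and 40 in replicate 2. The replicate 1 peaks at ZNF609 both scored above the median of 74 of their list. Their scores of 77 and 109 lay within the range of 55 to 376 of the shared regions inside ZNF608 in replicate 1. Both were below the median of 132 of those regions.

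**Figure D4:**
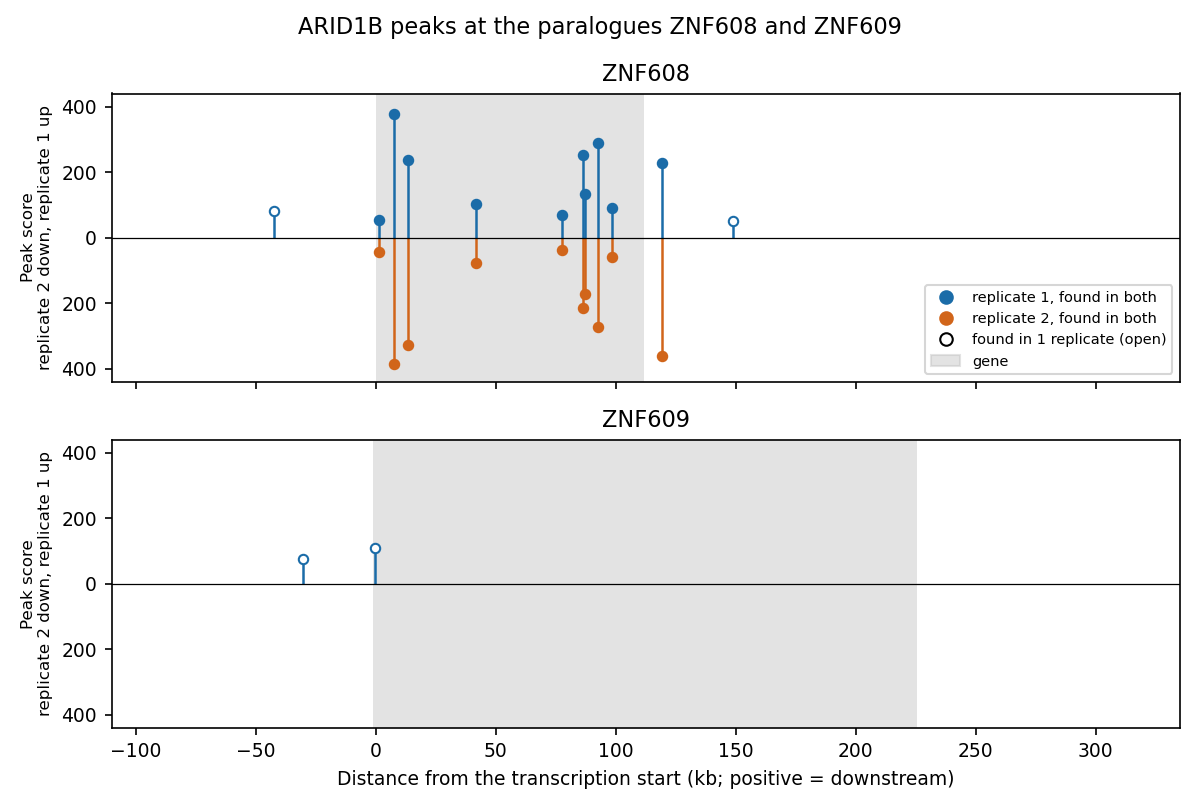
Peaks at ZNF608 (top) and ZNF609 (bottom) by distance from each transcription start (x axis, kb) and score (y axis, authors' scale), with replicate 1 above and replicate 2 below the line, filled where found in both and open where found in 1, and the gene in gray. ZNF608 shows 9 filled pairs in the gene and 1 past its end. It also shows open points of replicate 1 on both sides of the gene, at chr5:124790996-124791342 (score 81) and chr5:124599734-124599942 (score 50). ZNF609 shows 2 open points of replicate 1.

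The surroundings of the paralogues differ as well. ZNF608 lies 1020 kb from the end of CSNK1G3, a casein kinase 1 gene, on one side and 1611 kb from GRAMD2B on the other, with no protein-coding gene between. ZNF609 lies 4.28 kb from TRIP4 and 1.51 kb from OAZ2, a regulator of polyamine levels. The gap between ZNF608 and GRAMD2B held 11 shared regions, the most of 320 gaps of at least 1 Mb between protein-coding genes, 64 of which (20%) held any. The gap between CSNK1G3 and ZNF608 held 4. Per length these were 6.83 and 3.92 regions per Mb, first and second of the 320 gaps, whose median was 0. This comparison was chosen after the positions were seen.

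**Figure D5:**
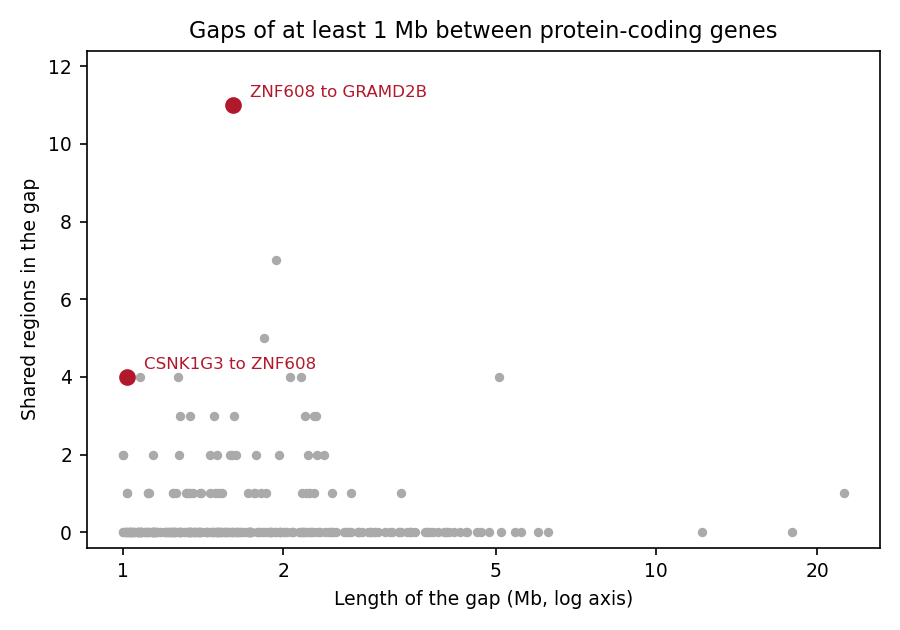
Length of each gap of at least 1 Mb between neighbouring protein-coding genes (x axis, Mb, log) against the number of shared regions in it (y axis). The gaps beside ZNF608 are marked, that towards GRAMD2B with 11 regions and that towards CSNK1G3 with 4.

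The limits of the stretch cut through these gaps. Just inside it lay the regions at 736 kb upstream, with scores of 301 and 285, and at 373 kb past the gene end, with 83 and 91. Just outside it, 59.3 kb beyond its upper limit, lay peaks at chr5:125659251-125659857 (score 172 in replicate 1) and chr5:125659263-125659627 (205 in replicate 2). On the other side the first peak, 71.9 kb beyond the lower limit, was one of replicate 2 alone with a score of 37, and the next was a shared one, with 116 in replicate 1 and 157 in replicate 2. Among windows of 1.4 Mb that began at a shared region, those that did not reach into the stretch held at most 12 regions, at GMDS and FOXC1 on chromosome 6, against 21 for the fullest window that began in the stretch.

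Genes of a partner list had no shared region. The list held the cohesin loader and the Integrator complex, known partners of mouse Zfp609, and also cohesin genes, which are not named as its partners here. Of 25 genes for cohesin, its loader and the Integrator complex, 0 had one inside the gene or within 1000 bp of an end, with an upper 95% bound of 13.7% (exact Clopper-Pearson), against 3.26% of all protein-coding genes. The bound lies above that share, although 0 is the lowest count possible. A list of 25 genes could therefore not show a lower rate than in other genes. NIPBL, the loader gene, had 1 peak in each replicate at different places. That of replicate 1, at chr5:36929072-36929342, scored 23 (percentile 3.24), and that of replicate 2, at chr5:37002294-37002493, scored 67 (percentile 43.8).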

How the data were processed

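ARID1B ChIP-seq was made in 2 replicates with 1 input. The tools named are MACS2 2.1.2, Bowtie2 2.3.4.1 and bcl2fastq 2.20.0.422, with build hg38, per the submitters' processing notes. The authors deposited 1 list per ChIP replicate, with a position and a whole-number score per peak. Not given in the sources used here are settings, threshold, duplicate treatment, use of the input as control and the antibody. Duplicates, if kept, could change scores, which was not tested.

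Starts were converted to count from 1. Peaks overlapping by at least 1 bp between replicates were shared, and connected peaks were 1 region. Genes and promoter windows came from RefSeq (GRCh38.p14), keeping 58961 of 59792 genes. Both paralogues had a promoter window. Shares over protein-coding genes and gaps use chromosomes 1 to 22 and X, while shares over peaks and shared regions use every sequence in the lists. Overlap code was tested on simulated data. Python 3.11.

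The members and lists were chosen with earlier results of these data known. Genes named were the paralogues, genes at or nearest their peaks, CSNK1G3 and CSNK1G1, and partner-list genes. GMDS, NKAIN2, TOM1L2, ZNF503 and FOXC1 were named after their values were seen. Alternatives tried were stricter overlap, higher scores, single lists and other windows.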

Additional observations from a re-analysis of the deposited data

How the results depend on the processing

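Of 48 alternatives, 39 left the value within 1.5 times (counts) or within its spread. For spacing and percentiles that spread came from the 2 single lists. A reversal could be scored only for the score correlation, and none occurred. The stricter overlap rules could not drop a pair of the stretch, where overlap was at least 59.8% and centres at most 101 bp apart. The median percentile does not depend on the overlap rule. The number unchanged is therefore no measure of how firm the results are. The 20 shared regions of the ZNF608 stretch and the 9 inside the gene were also counted with 50% reciprocal overlap and with centres within 200 bp, which gave 20 and 9 again. With peaks under their list's median score removed, 15 and 6 regions were left and the median spacing was 63.2 kb. The stretch formed 9 groups when joined within 50 kb and 2 within 200 kb. With 1 list alone, leaving out each replicate in turn, ZNF608 stretch counts ran from 21 to 25, gene body counts were 9, groups were 4, and ZNF609 counts ran from 0 to 2. Spacing ran from 24.6 to 24.7 kb, median percentiles from 63.5 to 70.6, and genes of the partner list numbered 1, NIPBL in each replicate. No paired analysis was possible because only the ChIP samples have a list and they form 1 group. Depth is unknown, so absence of a peak does not show absence of ARID1B.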

Other observations

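Close neighbours were of unequal score. The pair in ZNF608 whose centres lay 0.938 kb apart scored 252 and 132 in replicate 1 and 216 and 171 in replicate 2. The pair 736 kb upstream, 0.733 kb apart, scored 301 and 43 in replicate 1 and 285 and 78 in replicate 2. Another position, 661 kb upstream, had a peak of score 36 in replicate 1 alone, at chr5:125408693-125408984, beside the peak of score 244.

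The casein kinase 1 genes CSNK1G3 and CSNK1G1 are paralogues on the same chromosomes as ZNF608 and ZNF609. CSNK1G3 is the next protein-coding gene to ZNF608 on one side, and TRIP4 is among the genes between CSNK1G1 and ZNF609. CSNK1G3 held 0 peaks in either replicate, and its nearest shared region was 440 kb away. CSNK1G1 held 1 peak in replicate 1, at chr15:64237687-64238014 with a score of 95, and 0 in replicate 2. Its nearest shared region was 949 kb away.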
